A study of Mus musculus with 4 samples.

Results

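This account covers chromatin accessibility at 41 genes that encode developmental transcription factors of tissues other than blood, measured in MPP3 cells of mouse bone marrow. The genes were taken as a named set of neural, muscle, heart, neural crest and skeletal, endodermal, kidney, pituitary and vessel regulators, and all 41 matched a protein-coding gene among 21887. Accessible regions were assigned to a gene when they lay in the gene body or within 50 kb of either side. Of 77914 regions in the series 296 met that rule, and 7 of these lay near both Pdx1 and Cdx2, which are neighbours on chromosome 5.

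ATAC-seq marks open chromatin by cutting DNA with a transposase, and the deposited data were lists of peaks, that is, places where cuts piled up. MPP3 are multipotent progenitors of bone marrow that are biased towards the myeloid lineage. The cells were sorted from WT-iMOS mice aged 3 months, under genotype labels WTiMOS_T2 and WTiMOS_T1, with 2 libraries in the T2 group and 2 in the T1 group. The series asks about the role of Bcl11a in MPP3 cells, but the labels do not say what T2 and T1 stand for, nor how the iMOS mice were made. They also do not say whether the 2 libraries of a group came from separate animals, so their spread may be technical.

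Developmental regulators of this kind bind DNA through homeodomain, basic helix-loop-helix, SOX, PAX, T-box, GATA or forkhead domains, and each is known for setting the identity of a tissue in the embryo. In cells of another lineage they are usually silent. Their promoters are often rich in CpG dinucleotides, and in many cell types such silent CpG-rich promoters are occupied by Polycomb proteins, while some stay partly open.

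The promoter windows of 8 of the genes are shown because they stand for the patterns described further on. Each runs from 250 bases before to 50 bases after the gene start, is written 5′ to 3′ on the gene's strand from RefSeq (GRCm38.p6, the assembly that mm10 names), and has its CpG dinucleotides in capitals. Lhx2, Foxa1 and Isl1 stand for genes with gene-end peaks in all 4 libraries. By mean rank, their peaks were the strongest of this kind among the listed genes with a promoter window. The windows lie at chr2:38339031-38339330 (plus strand), chr12:57546062-57546361 (minus strand) and chr13:116309639-116309938 (minus strand).
Lhx2: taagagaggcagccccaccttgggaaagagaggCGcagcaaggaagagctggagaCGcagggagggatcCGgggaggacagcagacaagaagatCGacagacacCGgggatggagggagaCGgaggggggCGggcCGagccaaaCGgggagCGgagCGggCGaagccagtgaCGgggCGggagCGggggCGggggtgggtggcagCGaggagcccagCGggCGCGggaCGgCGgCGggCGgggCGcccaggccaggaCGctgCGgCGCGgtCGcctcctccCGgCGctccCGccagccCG
Foxa1: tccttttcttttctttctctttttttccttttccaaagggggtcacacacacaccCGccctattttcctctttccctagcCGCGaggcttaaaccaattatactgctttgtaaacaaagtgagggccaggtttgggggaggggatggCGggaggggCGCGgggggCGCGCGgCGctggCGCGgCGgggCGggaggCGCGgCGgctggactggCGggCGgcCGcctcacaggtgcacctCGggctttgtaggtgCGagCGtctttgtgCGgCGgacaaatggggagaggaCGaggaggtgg
Isl1: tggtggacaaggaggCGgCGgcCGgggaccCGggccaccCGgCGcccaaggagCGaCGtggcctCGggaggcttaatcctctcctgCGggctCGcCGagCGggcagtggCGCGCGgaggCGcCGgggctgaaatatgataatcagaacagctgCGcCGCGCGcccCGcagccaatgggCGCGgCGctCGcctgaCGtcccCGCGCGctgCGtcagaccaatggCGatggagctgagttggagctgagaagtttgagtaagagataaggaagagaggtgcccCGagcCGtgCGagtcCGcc
Pax6, Six3 and Otx2 stand for genes with no gene-end peak in any library, with windows at chr2:105668646-105668945 (plus strand), chr17:85620584-85620883 (plus strand) and chr14:48667595-48667894 (minus strand).
Pax6: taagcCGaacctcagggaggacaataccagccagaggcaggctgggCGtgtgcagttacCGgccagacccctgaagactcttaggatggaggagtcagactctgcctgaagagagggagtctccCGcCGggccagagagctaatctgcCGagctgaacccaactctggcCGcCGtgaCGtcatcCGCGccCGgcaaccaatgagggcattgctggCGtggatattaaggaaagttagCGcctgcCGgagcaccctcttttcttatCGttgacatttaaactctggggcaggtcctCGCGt
Six3: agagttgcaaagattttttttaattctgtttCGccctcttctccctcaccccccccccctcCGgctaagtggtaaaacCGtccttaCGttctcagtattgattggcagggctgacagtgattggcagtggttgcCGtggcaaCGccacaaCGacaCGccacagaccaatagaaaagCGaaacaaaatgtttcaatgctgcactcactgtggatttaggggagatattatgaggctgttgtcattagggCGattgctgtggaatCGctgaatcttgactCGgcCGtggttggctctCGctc
Otx2: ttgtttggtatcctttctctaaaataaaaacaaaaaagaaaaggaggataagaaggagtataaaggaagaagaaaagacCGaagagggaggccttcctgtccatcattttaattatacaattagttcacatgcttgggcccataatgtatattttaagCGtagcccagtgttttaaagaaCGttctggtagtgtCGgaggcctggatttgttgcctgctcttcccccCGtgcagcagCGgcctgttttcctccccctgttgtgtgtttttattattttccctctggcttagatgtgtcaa
Neurod1 and Olig2, picked after their values were seen, carried a peak on this window in both T2 libraries and in neither T1 library, at chr2:79456587-79456886 (minus strand) and chr16:91225300-91225599 (plus strand).
Neurod1: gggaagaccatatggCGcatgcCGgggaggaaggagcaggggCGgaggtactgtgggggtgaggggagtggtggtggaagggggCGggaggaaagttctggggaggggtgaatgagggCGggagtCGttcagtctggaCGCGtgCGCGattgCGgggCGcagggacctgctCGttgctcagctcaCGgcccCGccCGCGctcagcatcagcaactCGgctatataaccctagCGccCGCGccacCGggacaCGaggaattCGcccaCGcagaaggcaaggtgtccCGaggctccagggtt
Olig2: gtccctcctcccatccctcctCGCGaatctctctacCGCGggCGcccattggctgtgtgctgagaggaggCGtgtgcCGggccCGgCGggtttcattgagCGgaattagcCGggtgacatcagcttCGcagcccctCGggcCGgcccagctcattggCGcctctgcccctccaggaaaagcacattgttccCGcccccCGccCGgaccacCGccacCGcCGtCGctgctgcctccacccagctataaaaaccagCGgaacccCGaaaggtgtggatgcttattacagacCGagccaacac
The windows held 34, 26 and 37 CpG dinucleotides in Lhx2, Foxa1 and Isl1, 18, 14 and 6 in Pax6, Six3 and Otx2, and 26 and 25 in Neurod1 and Olig2. The gene-end patterns do not describe the windows themselves. The window of Isl1 carried a peak in all 4 libraries, that of Lhx2 in T2 only and that of Foxa1 in none. Within 1 kb of the RefSeq start of Six3, which lies inside the annotated gene, all 4 libraries had a peak.

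The lists held 66764 and 62704 peaks in the T2 libraries, against 58454 and 54045 in the T1 libraries, and peak lists give no read depth. A longer list holds more regions over the whole genome, so T2-only shares are read against those over all regions or genes, 6.88% and 1.17% as deposited. The label was checked at gene ends: 5 of 7 progenitor sort genes had a peak in all 4 libraries, among them Kit, Cd34 and Cd48, while Ly6a had none. For granulocyte-monocyte genes it was 6 of 8, with Elane at none and Mpo in T2 only. Gene-end peaks do not separate cell types well here, because 5 of 7 endothelial, 3 of 6 stromal, 3 of 5 erythroid, 4 of 6 neural, 2 of 5 muscle and 4 of 5 epithelial marker genes also had one in all 4 libraries. Cdh5 (endothelial), Pdgfra, Lepr and Dcn (stromal), Gata1 and Slc4a1 (erythroid), Gfap (neural) and Myh1 and Myh4 (muscle) had none in any library. Whether cells of another type contribute to the values below was not tested.

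At gene ends, 17 of the 41 genes (41.5%) had a peak within 1 kb of either end in all 4 libraries, against 59.7% of all protein-coding genes. Within 5 kb the direction of that comparison turned, with 31 genes (75.6%) against 69.7% of all genes. With the 1 kb window a further 8 genes (19.5%) had one in both T2 libraries and in neither T1 library, a pattern shown by 1.17% of all genes. None had the reverse pattern, which 0.160% of all genes showed, and 7 genes (17.1%) had no gene-end peak in any library, against 34.2% of all genes. The other 9 genes had a peak in 1 to 3 libraries without separating the groups, and for 5 of them (12.2%, against 1.23% of all genes) the library without a peak was T1 replicate 2.

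Counted per library, 31 and 33 of the genes had a gene-end peak in the T2 libraries, against 24 and 19 in the T1 libraries. The groups did not overlap. The mean was 32 ± 1.41 genes in T2 and 21.5 ± 3.54 genes in T1 (SD, n = 2 each), a ratio of 1.49, with an exact two-sided permutation p of 0.333, which is the smallest that 2 against 2 libraries can give. Over all genes the same count was 14070 and 13896 in T2, against 13639 and 13393 in T1, a ratio of 1.03. The T2 lists are longer. With lists of equal length the genes with a T2-only gene-end peak fell from 8 to 2, and 1 had the T1-only pattern.

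**Figure D1:**
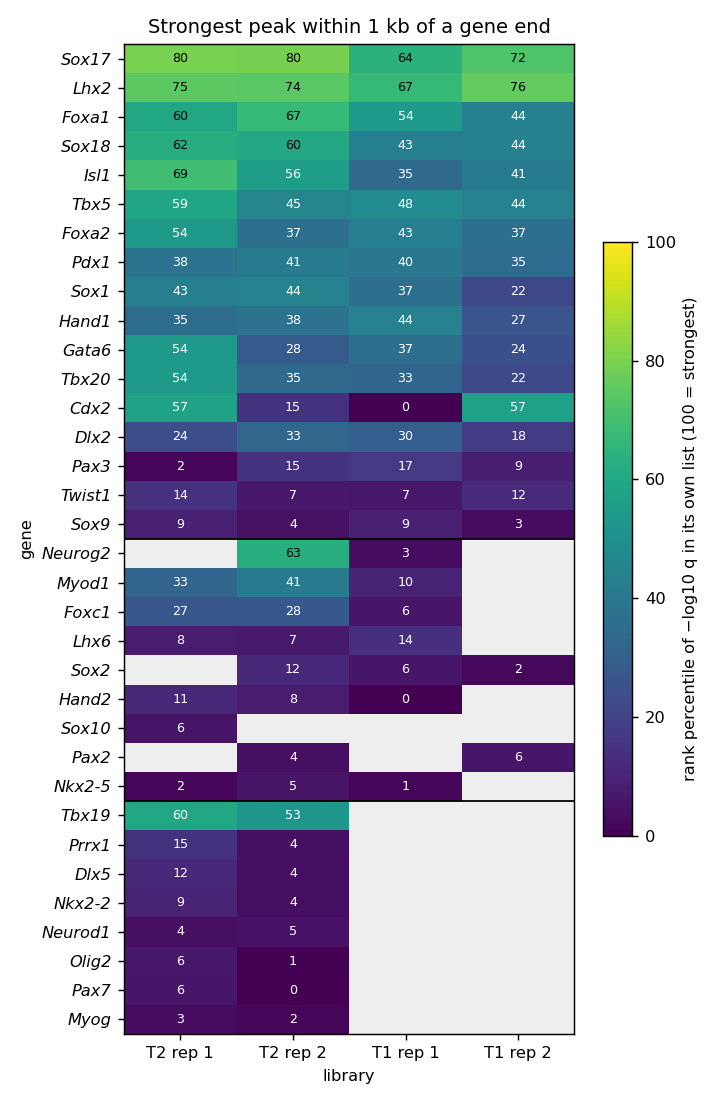
Strongest peak within 1 kb of a gene end in the T2 and T1 libraries (columns) for the 34 genes that had one in at least 1 library (rows, in blocks by whether the peak was in all 4 libraries, in a mixture or in T2 only). Colour and digits give the rank percentile of the peak's −log10 q within its own list, where 100 is the strongest, and grey cells have no peak. In the lowest block all T2 cells except those of Tbx19 are dark, with rank percentiles under 15.

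The neural and neural retina regulators were split between several patterns. Of 13, Sox1, Lhx2 and Dlx2 had a gene-end peak in all 4 libraries. Sox1 marks early neural progenitors, Lhx2 acts in eye and forebrain formation, and Dlx2 specifies forebrain interneurons. How strong a peak was is stated here by its −log10 q, a value the authors deposited for each peak, which measures significance against local background within 1 library. It is not compared between libraries, since its median over all shared regions was 39.8 and 33.3 in T2, against 33.3 and 26.3 in T1. The gene-end peak of Lhx2 had −log10 q of 53.9 and 47.1 in T2, against 39.5 and 46.8 in T1, and it was the second highest of the 41 genes by mean rank, with rank percentiles of 67.0 to 75.9. It lay at the 3′ end of the gene, at chr2:38368631-38369324. The Lhx2 window printed above carried a peak in both T2 libraries only, while a weak peak of T1 replicate 1 (3.14) lay in the same region beyond the window.

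Neurod1, Olig2 and Nkx2-2, which drive neuronal differentiation, oligodendrocyte and motor neuron fate, and ventral neural tube patterning, had gene-end peaks in T2 only. Their −log10 q values were 4.80 and 4.76 for Neurod1, 5.596 and 3.04 for Olig2, and 6.61 and 4.17 for Nkx2-2. All 6 peaks ranked low in their lists, with the highest rank percentile at 9.47. Pax6, Six3, Otx2 and Nkx2-1, regulators of eye, forebrain and ventral forebrain or lung development, had no gene-end peak in any library.

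Neurog2, Sox2 and Lhx6 had mixed patterns. For Neurog2, a proneural factor, the pattern came partly from the 1 kb limit. The region chr3:127633829-127634684 in its body had peaks in all 4 libraries, with −log10 q of 49.2 and 32.4 in T2, against 37.1 and 31.3 in T1, and only that of T2 replicate 2 reached within 1 kb of a gene end. In separate regions within 1 kb of the gene start, T2 replicate 2 had a weak peak of 4.44 and T1 replicate 1 had one of 3.99. Sox2, a factor of pluripotent and neural stem cells, had 6.78 in T2 replicate 2, against 4.97 and 3.59 in the T1 libraries. Lhx6, which acts in interneurons, had 5.82 and 5.19 in T2, against 7.63 in T1 replicate 1.

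RefSeq starts inside a gene change this picture for a few genes. The start of Six3 lies inside the gene's annotated span, and within 1 kb of it there was a peak in all 4 libraries. The same held for the start of Neurog2 and for the second start of Lhx2. The second start of Pax6, at position 105682463 of chromosome 2, had a peak in both T2 libraries and neither T1 library. For Nkx2-2 the RefSeq start, at position 147186402 of chromosome 2, had no peak within 1 kb in any library, and its T2-only gene-end peak lay at the outer end of the annotated span. Among genes of the other groups, the start of Hand2 had peaks in T2 only and that of Nkx2-5 had none. That of Pdx1 had a peak in T2 replicate 2 alone. The inner starts of Pax2 had peaks in both T2 libraries and T1 replicate 1, while its outermost start had none.

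Among the 5 skeletal muscle regulators, Myog and Pax7 had gene-end peaks in T2 only. Myog, which drives terminal muscle differentiation, had −log10 q of 4.27 and 3.57, and Pax7, the factor of muscle stem cells, had 5.28 and 2.42. The Pax7 peaks of the T2 libraries did not overlap each other, so no single region at its end was T2-only. Myod1, a muscle master regulator, had a region at each end. That at chr7:46376929-46377269 had 10.7 and 5.596 in T2, against 6.31 in T1 replicate 1, and that at chr7:46379005-46379323 had 14.5 and 17.0 in T2 and no peak in T1. Pax3, of muscle precursors and neural crest, had weak peaks in all 4 libraries, with 3.71 and 7.53 in T2, against 8.25 and 5.47 in T1. Myf5 had none.

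Of the 8 heart regulators, Tbx5, Tbx20, Hand1, Gata6 and Isl1 had gene-end peaks in all 4 libraries. Isl1, which marks second heart field progenitors, had −log10 q of 44.2 and 26.0 in T2, against 14.6 and 16.0 in T1. Tbx5, a factor of heart and forelimb, had 31.4 and 19.2 in T2, against 21.8 and 17.4 in T1. By rank among shared regions Isl1 was higher in both T2 libraries than in both T1 libraries (values below), while Tbx5 overlapped between the groups. Nkx2-5 had 3.92 and 4.98 in T2, against 3.30 in T1 replicate 1. Hand2 had 6.99 and 5.62 in T2, against 5.68 in T1 replicate 1, in the region chr8:57321793-57322532, where the T1 peak lay just outside the 1 kb limit. The gene-end peak of Hand2 in T1 replicate 1 was a weak one of 2.51 near its 3′ end, at chr8:57323543-57323913. Both genes act in heart morphogenesis, and neither had a gene-end peak in T1 replicate 2. Gata4, a cardiac and endodermal GATA factor, had no gene-end peak in any library. Its 50 kb window held 5 shared regions, some in the gene body and others, with the strongest, nearest to Fdft1 or Neil2.

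The 7 neural crest and skeletal regulators were mostly weak. Sox9, the chondrocyte regulator, and Twist1, of mesenchyme, had gene-end peaks in all 4 libraries. Their mean rank percentiles were 6.45 and 10.01, and Sox9 had the lowest of the 17. Dlx5 and Prrx1, of branchial arch, bone and limb, had T2-only peaks with −log10 q of 7.11 and 4.13 for Dlx5 and 8.06 and 4.32 for Prrx1. Foxc1 had 12.3 and 11.4 in T2, against 5.01 in T1 replicate 1. Sox10, a factor of glia and melanocytes, had 5.24 in T2 replicate 1 alone, and Foxc2 had none.

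The 5 endodermal regulators were the only group in which each gene had a gene-end peak in all 4 libraries. For Cdx2 this did not hold when −log10 q had to reach 5. Sox17, an endoderm and arterial factor that also acts in fetal haematopoietic stem cells, was the highest of all 41 genes by mean rank. Its −log10 q was 66.7 and 57.4 in T2, against 36.2 and 41.03 in T1. In both T1 libraries the gene-end peak of Lhx2 ranked higher. Foxa1, a pioneer factor of gut and liver, had 32.4 and 36.4 in T2, against 25.7 and 17.2 in T1. Foxa2, of the same family, had 26.7 and 15.1 in T2, against 19.04 and 14.3 in T1. Pdx1, the pancreas regulator, had 17.1 and 17.1 in T2, against 17.2 and 13.5 in T1. Ranked among shared regions, the Sox17 peak stood at 69.8 and 71.1 in T2, against 53.3 and 66.4 in T1. That of Foxa1 stood at 41.4 and 53.7 in T2, against 40.3 and 33.75 in T1. Both were higher in T2 without overlap, Foxa2 overlapped, and Pdx1 was higher in both T1 libraries, at 17.2 and 23.5 in T2, against 25.2 and 24.7 in T1. For Cdx2, the intestinal regulator, the strongest gene-end peak had 29.8 and 7.58 in T2, against 2.27 and 25.2 in T1. This spread came from a pair of regions, since the stronger one, at chr5:147299112-147300058, had peaks in all 4 libraries but reached within 1 kb of the gene in only some.

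In the last group, Tbx19, which drives pituitary corticotrope fate, had the strongest T2-only gene-end peak, with −log10 q of 31.9 and 23.5 in T2 and no peak in T1. Sox18, a vessel endothelial factor, had 34.5 and 29.6 in T2, against 19.1 and 17.3 in T1. By rank among shared regions it was higher in both T2 libraries, at 44.1 and 45.04 in T2, against 28.7 and 33.9 in T1. Pax2, of kidney and ear, had 4.21 in T2 replicate 2 and 5.09 in T1 replicate 2.

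In 7 of the 8 T2-only gene ends, all but that of Pax7, a single T2-only region held the peaks. By strength they fell into 1 strong and 7 weak. Tbx19 alone had −log10 q of at least 5 in both T2 libraries, and the other 7 had rank percentiles under 15 in both. When only peaks of −log10 q of at least 5 were counted, 2 genes (Tbx19 and Hand2, the second through the 1 kb limit given above) had the T2-only pattern, against 1.20% of all genes. At a threshold of 10 there were 3 (Tbx19, Myod1 and Foxc1), against 1.51%. When every list was shortened to its 54045 strongest peaks there were 2 (Tbx19 and Foxc1), against 0.548%, and 1 gene (Sox9) had the T1-only pattern, against 0.589%. Only Tbx19 was called under all 3. Tbx19 lost the pattern with other gene-end windows. With peaks on the end itself Nkx2-2 and Myod1 had it, and within 5 kb Myog and Pax7 had it. The count thus fell when weak peaks were left out and when the lists had equal length, and it was 13 without T1 replicate 1, against 2.39% of all genes.

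The 17 genes with gene-end peaks in all libraries ranked low among genes of that kind. Their mean rank percentile had a median of 36.5 (range 6.45 to 74.1), against 84.1 for all genes with such peaks. Of the 10 whose strand was known, 8 had a peak in all 4 libraries within 1 kb of the gene start, and Lhx2 and Pdx1 had theirs at the 3′ end.

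**Figure D2:**
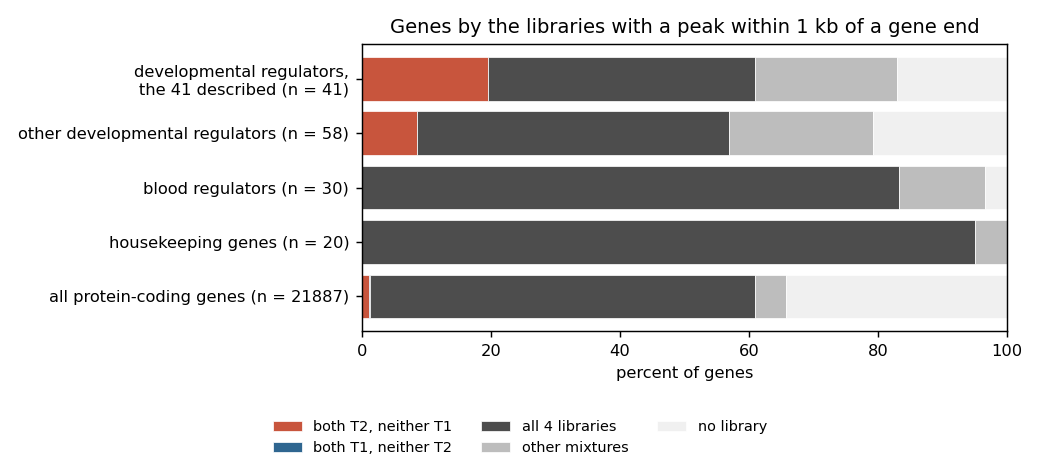
Percent of genes by the libraries that hold a peak within 1 kb of a gene end, for the 41 developmental regulators, 58 other developmental regulators, 30 blood regulators, 20 housekeeping genes and all 21887 protein-coding genes. The T2-only segment is 19.5% of the 41 genes and 1.17% of all genes, and no blood or housekeeping gene falls in it.

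Other lists were counted the same way. Of 58 further developmental regulators, 28 had a gene-end peak in all 4 libraries, 12 had none, and 5 (8.62%) had one in T2 only, among them Pax1 and Neurod2. Of 30 blood regulators 25 had one in all 4 libraries, among them Spi1, Runx1 and Gata2, and 0 in T2 only. Of 20 housekeeping genes it was 19 and 0. No gene of these 3 lists had the T1-only pattern. The genes and these lists were chosen with earlier results of these data known, and the differences between lists carry no test.

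Within 50 kb, the genes had a median of 7 regions each (range 1 to 15), equal to the median of 7 over all genes. Myf5 had the fewest and Foxc2 the most. Of the 296 regions 131 (44.3%) had a peak in all 4 libraries, against 56.8% of all regions and 57.9% of those in or within 50 kb of any protein-coding gene. There were 35 T2-only regions (11.8%), against 6.88% of all regions and 6.64% of those near any gene. There were 5 T1-only regions (1.69%), against 2.33% and 2.25%. The other 125 (42.2%, against 33.2% of those near any gene) were mixed. Among them were 26 with peaks in both T2 libraries and T1 replicate 1, a pattern of 4434 of all 77914 regions. In total 23 genes (56.1%) had at least 1 T2-only region, against 35.0% of all genes, and 4 genes (9.76%) had at least 1 T1-only region, against 13.6%.

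In each library, 230 and 231 of these regions held a peak in T2, against 193 and 173 in T1, and the groups did not overlap. The means were 230.5 ± 0.707 in T2 and 183 ± 14.1 in T1 (SD, n = 2 each), a ratio of 1.26, with an exact two-sided permutation p of 0.333. Over all regions the means were 63903 ± 3155 in T2 and 55573 ± 3372 in T1, a ratio of 1.15. As a share of a library's regions this was 0.348% and 0.375% in T2, against 0.333% and 0.325% in T1. With lists of equal length the direction turned, with 16 fewer regions on average in T2 than in T1. At that length 13 of 225 regions were T2-only (5.78%, against 4.33% of all) and 11 were T1-only (4.89%, against 4.61%). In sorted cells, fewer cells with an open site and less opening per cell cannot be told apart.

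**Figure D3:**
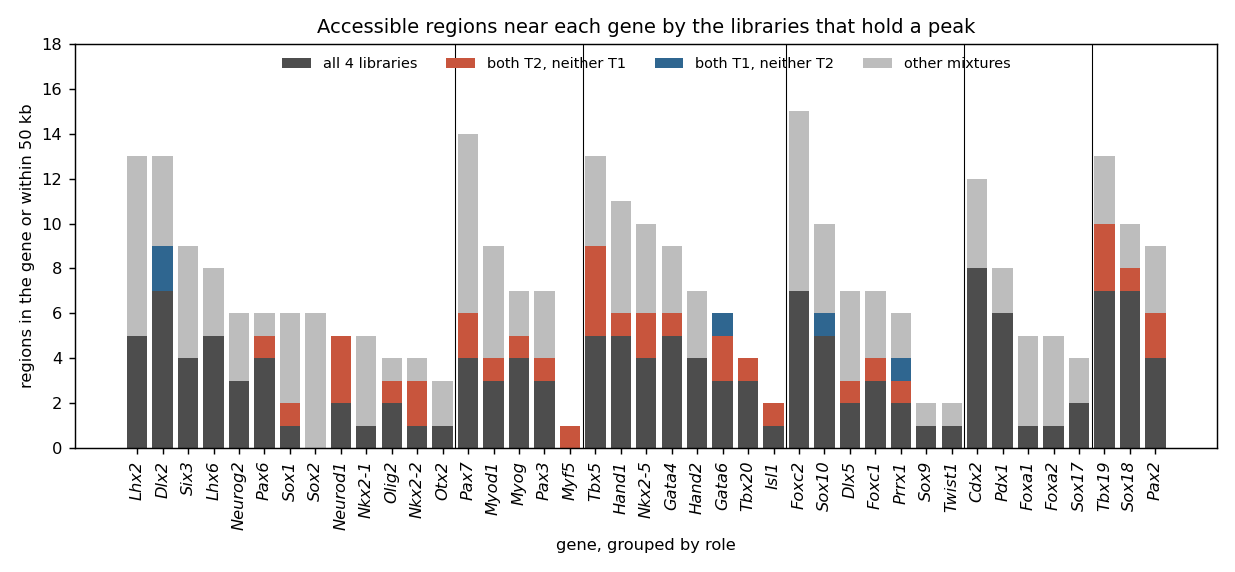
Number of regions in each gene or within 50 kb of it, stacked by the libraries that hold a peak (all 4, both T2 and neither T1, both T1 and neither T2, other mixtures), with genes grouped by role. Tbx5 has 4 T2-only regions, Neurod1 and Tbx19 have 3 each, and the 5 endodermal genes have 0.

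By role, T2-only regions numbered 12 of 62 (19.4%) near the heart regulators, 6 of 32 (18.8%) near those of kidney, pituitary and vessel and 6 of 38 (15.8%) near those of muscle, against the 6.88% of all regions. The neural regulators had 8 of 88 (9.09%), those of neural crest and skeleton 3 of 49 (6.12%) and those of endoderm 0 of 27. The counts are small, and differences between roles were not tested. Of the 35 regions 10 lay within 1 kb of a gene end of a listed gene, 13 overlapped a gene body, and for 30 the listed gene was the nearest one.

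Near the neural genes the strongest T2-only regions flanked Neurod1. The region at chr2:79447209-79447470 lay 5167 bp beyond the 3′ end and had −log10 q of 39.1 and 19.6. That at chr2:79499214-79499608 lay 42578 bp upstream of the start and had 34.9 and 26.2. With the start region at chr2:79456655-79456940, 3 of the 5 regions near Neurod1 were T2-only. The other neural regions were weaker. Nkx2-2 had chr2:147184014-147184465 in its body with 8.58 and 4.88, and chr2:147194920-147195631 at the outer end of its annotated span with 6.61 and 4.17. Pax6 had chr2:105682620-105683146 with 8.79 and 4.47, next to its second start. Olig2 had chr16:91224948-91225568 over its start with 5.596 and 3.04, and Sox1 had chr8:12397353-12397627 with 3.99 and 3.36.

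Near the muscle genes, the T2-only region of Myod1 at chr7:46379005-46379323 covered a gene end and had −log10 q of 14.5 and 17.0. Pax7 had chr4:139852033-139852906 with 10.5 and 8.12, 18503 bp upstream, and chr4:139821279-139821866 in its body with 5.35 and 5.71. Pax3 had chr1:78187289-78187732 in its body with 4.01 and 9.75. The Myog region, chr1:134290064-134290490, lay at the gene start with 4.27 and 3.57. The region in the Myf5 window, chr10:107493441-107494051, had 5.73 and 3.24, and its nearest gene was Myf6, another muscle regulator.

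Near the heart genes, Tbx5 had 4 T2-only regions. They were chr5:119766529-119766911 with −log10 q of 10.6 and 11.2, chr5:119777835-119778104 with 7.58 and 19.6, chr5:119839301-119840142 in the body with 7.37 and 5.91, and chr5:119887417-119887657 with 9.14 and 12.4. The strongest pair lay near Gata6, 461 bp apart, at chr18:11119128-11119630 with 18.08 and 17.96 and at chr18:11120092-11120699 with 29.3 and 28.5. They lay 33492 and 34456 bp from the gene, and a T1-only region lay 5993 bp from its other end.

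The Nkx2-5 window held chr17:26794631-26795069 with 18.3 and 20.6, nearest to Bnip1, and chr17:26850258-26850720 with 5.28 and 5.07. The Hand1 window held chr11:57778451-57778844 with 21.9 and 22.2, nearest to Galnt10. The Tbx20 window held chr9:24696024-24696401 with 9.54 and 3.24, nearest to Dpy19l2. For these 3 genes a T2-only region was thus closer to another gene. Gata4 had chr14:63245259-63245810 in its body with 6.57 and 10.4, and Isl1 had chr13:116297211-116297775, 495 bp beyond its 3′ end, with 4.85 and 6.95.

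Among the neural crest and skeletal genes, Prrx1 had chr1:163314093-163314748 at its start with −log10 q of 8.06 and 4.32. Dlx5 had chr6:6881580-6881970 with 7.11 and 4.13, and Foxc1 had chr13:31810714-31810974, 79 bp beyond its 3′ end, with 3.83 and 3.18. In the last group, Tbx19 had chr1:165161088-165161455, 315 bp upstream of the start, with 31.9 and 23.5. A pair of regions 563 bp apart lay downstream of it, chr1:165104732-165105155 with 13.6 and 7.28 and chr1:165105719-165105953 with 7.54 and 5.02. Sox18 had chr2:181675518-181675777 with 19.8 and 23.4. Pax2 had chr19:44723876-44724357 with 4.69 and 6.94, and chr19:44882235-44882713 with 4.85 and 4.11, the second nearest to Slf2.

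The 5 T1-only regions lay near Dlx2, Gata6, Sox10 and Prrx1. The Dlx2 window held chr2:71499875-71500158 with −log10 q of 21.7 and 4.19, nearest to Metap1d, and chr2:71539652-71540105 with 8.66 and 3.41. The Sox10 window held chr15:79144037-79144270 with 8.07 and 11.95, nearest to Polr2f. Gata6 had chr18:11046194-11046517 with 5.74 and 3.24, and Prrx1 had chr1:163284133-163284436 in its body with 2.27 and 3.24. None lay within 1 kb of a gene end of a listed gene, and 0 of the 5 had −log10 q of at least 10 in both T1 libraries.

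**Figure D4:**
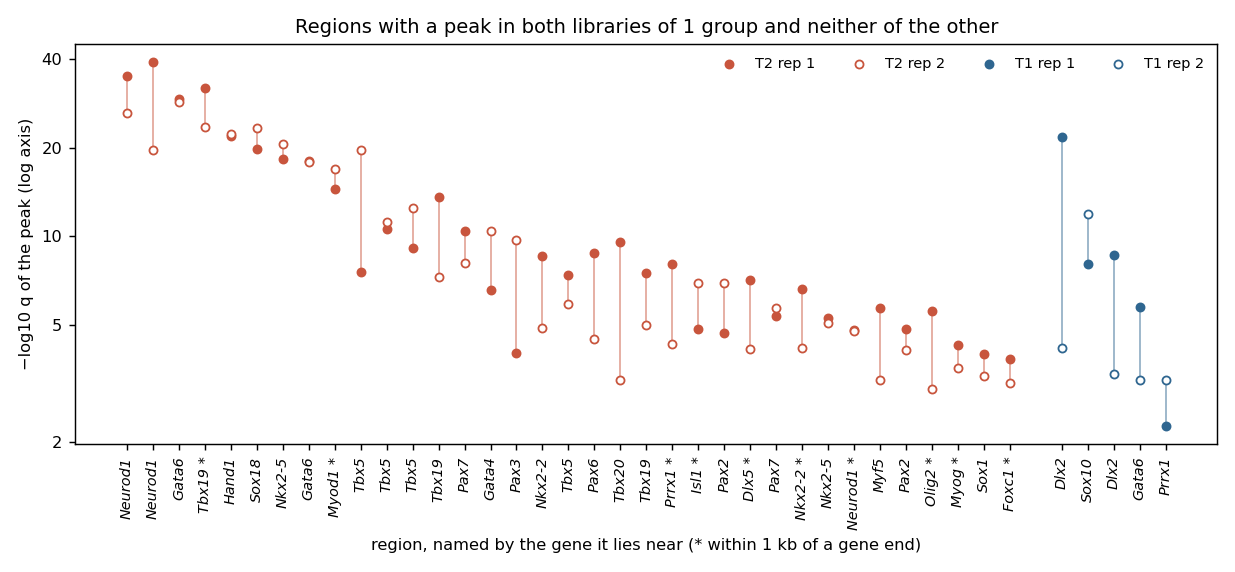
Authors' −log10 q (log axis) of each group-only region near the 41 genes, with filled points for replicate 1 and open points for replicate 2, joined for 1 region. The 35 T2-only regions (left) run from about 39 down to 3, and the 5 T1-only regions (right) include 0 with both replicates above 10.

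The T2-only regions near the genes were weaker than T2-only regions in general. Their median −log10 q was 7.58 and 6.94 in the T2 libraries, against 10.9 and 9.10 over all 5364 T2-only regions. Of the 35, 10 (28.6%) had −log10 q of at least 10 in both T2 libraries, against 36.8% of all. Their median widths were 371 and 260 bp, against 321 and 293 bp. When −log10 q had to reach 5, 24 of 251 regions were T2-only (9.56%, against 7.34% of all), and at a threshold of 10 it was 25 of 167 (14.97%, against 8.08%). A threshold also removes weak T1 peaks, so the 25 include regions that held a T1 peak as deposited. The T1-only count was 1 and 0 at these thresholds, against 2.26% and 2.25% of all regions.

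The 131 regions with peaks in all libraries were compared by rank among the 44274 such regions, since ranks in lists of unequal length cannot be set side by side. The regions near the genes sat low in this order, with median rank percentiles of 31.3 and 32.7 in T2, against 28.7 and 28.7 in T1. These library medians did not overlap between the groups. The median of the differences of single regions, T2 minus T1, was 0.43 percentile points, against 0.02 over all shared regions. Of the 131, 38 (29.01%) ranked higher in both T2 libraries than in both T1 libraries, against 26.3% of all shared regions. For 27 (20.6%) both T1 libraries were higher, against 26.2%.

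The 5 largest rank differences without overlap went both ways. A region 8573 bp beyond Lhx2, chr2:38378310-38379465, ranked at 37.2 and 36.9 in T2, against 3.01 and 6.46 in T1, a difference of 32.3. The start of Isl1, chr13:116309343-116310246, which holds the printed window, ranked at 54.4 and 39.7 in T2, against 19.96 and 30.9 in T1, a difference of 21.6. These were the gains in T2 rank. A region 6451 bp from Neurog2, chr3:127625348-127626282, ranked at 20.6 and 33.8 in T2, against 50.5 and 49.6 in T1, a difference of -22.9. One 47713 bp from Dlx2, chr2:71594467-71594989, ranked at 38.7 and 51.2 in T2, against 64.1 and 71.4 in T1, a difference of -22.8. The last lay in the Cdx2 window nearest to Flt3, a cytokine receptor gene of early progenitors, at chr5:147339612-147339980, and ranked at 11.0 and 7.49 in T2, against 31.0 and 31.4 in T1, a difference of -22.0.

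Peak widths of the 131 regions had medians of 610 and 569 bp in T2, against 551 and 494 bp in T1. The median log2 ratio of T2 over T1 widths was 0.05, against 0.07 over all shared regions. For 37 regions (28.2%) both T2 peaks were wider than both T1 peaks, against 29.7% of all shared regions, and for 8 (6.11%) both T1 peaks were wider, against 10.4%.

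The strongest shared regions in these windows lay closest to neighbouring genes. Of the 10 with the highest mean rank, 0 had a listed gene as the nearest one. The Gata4 window held chr14:63177618-63178567, nearest to Fdft1, an enzyme of sterol synthesis, with −log10 q of 227 and 182 in T2, against 222 and 167 in T1. The Cdx2 window held chr5:147340835-147341659, nearest to Flt3, with 132 and 115 in T2, against 115 and 87.3 in T1. For the 79 shared regions whose nearest gene was a listed one the median rank percentile was 36.5, for the other 52 it was 63.3, and over all shared regions it was 61.6. In this split the 7 regions near both Pdx1 and Cdx2 were scored for Pdx1 alone. Any of them nearest to Cdx2 thus counted among the 52 when shared, so these values are approximate.

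The promoter windows set sequence beside accessibility. Windows were at hand for 29 of the 41 genes, with a median CpG content of 0.731 observed over expected and a median GC share of 58.7%, against 0.575 and 56.3% over 17492 genes. A ratio above 0.6 is called CpG-rich here, which 16 of the 29 windows were (55.2%, against 48.2%). Of the 29 windows 3 (Sox1, Tbx20 and Isl1) overlapped a peak in all 4 libraries (10.3%), against 54.5% of all windows. A peak in T2 only was seen on 3 (Neurod1, Olig2 and Lhx2), against 0.886% of all windows, and in T1 only on 0, against 0.114%. No library had a peak on 16 of them (55.2%), against 39.6%.

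Most CpG-rich windows of all genes had a peak in every library, which few of these had. Of the 16 CpG-rich windows 3 (18.8%) had a peak in all 4 libraries, against 88.2% of all 8436 CpG-rich windows. No peak was found on 6 (37.5%), against 6.56%, 3 had a peak in T2 only, against 0.747%, and 4 had one in another mixture of libraries. The windows of Lhx2, Neurod1 and Olig2 printed above, with 25 to 34 CpG dinucleotides, were these 3. That of Foxa1, with 26, had no peak on it, although peaks lay within 1 kb of the start in all 4 libraries. The same held for the CpG-rich windows of Dlx2 and Six3. For that of Hand2, peaks lay within 1 kb of the start in both T2 libraries and neither T1 library. Each gene had 1 window, although Pax6, Lhx2, Lhx6, Otx2, Foxa2 and Pax2 have several RefSeq starts.

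**Figure D5:**
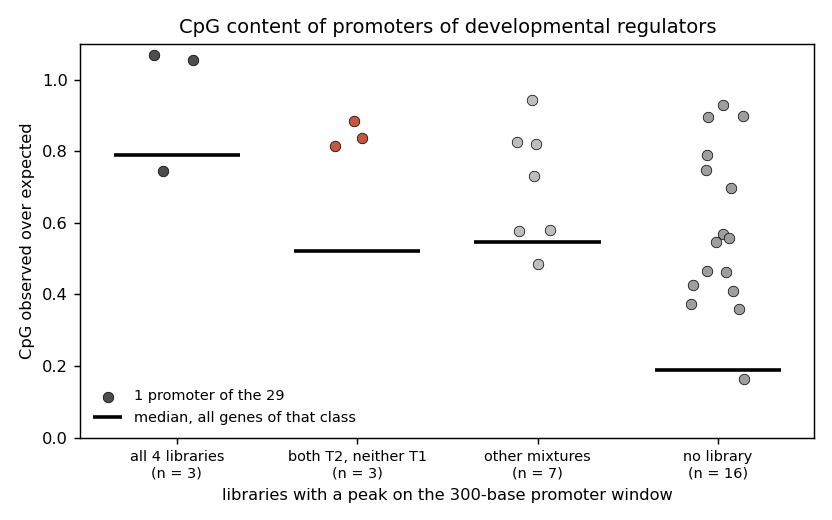
CpG observed over expected of the 29 promoter windows (points), by the libraries with a peak on the window, with the median of all genes of that class as a bar. The 16 windows with no peak run from 0.163 to 0.929, most of them above the all-gene median of 0.188 for that class.

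Short motifs were searched on both strands of the 29 windows, as letters only. GGGCGG (GC box) was in 18 windows (62.1%, against 46.3% of all) and CCAAT in 17 (58.6%, against 39.1%). TATAAA was in 4 (13.8%, against 13.3%). AGATAA, letters known from the motif of GATA factors, was in 4 (13.8%, against 9.96%), and TGTGGT, from that of RUNX factors, was in 4 (13.8%, against 15.1%). The BCL11A letters TGACCA were in 2, Lhx6 and Foxc1 (6.90%, against 12.6%). TGANTCA (AP-1) was in 1, that of Lhx6 (3.45%, against 7.05%), and GAGGAAGT (PU.1) in 0 (against 3.16%). The E-box CAGCTG was in 3 (10.3%, against 15.1%) and CAGATG in 2 (6.90%, against 14.9%). A match is a run of letters and not evidence of binding.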

How the data were processed

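ATAC-seq peaks of 4 libraries of sorted MPP3 cells were used, grouped by the sample titles into T2 and T1, with 2 libraries each. Bowtie2, SAMtools, MACS2 and the build mm10 are named in the submitters' processing notes. Their versions and settings are not given in the sources used. The authors deposited 1 peak list per library. The deposited columns follow the MACS2 order: a score, a fold value (a ratio of the summit to local background), −log10 p, −log10 q and the summit offset. Every one of these is the authors' own value for a peak, and −log10 q was used to describe, rank or filter peaks within a list. Libraries were compared by presence of a peak and by rank among shared regions. Read depth is unknown, so no count model was fitted and no interval is given.

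Peaks of the autosomes (1 to 19) and of X and Y were joined across lists where they shared 1 bp, and a region counted as present in a library whose list had a peak there. Gene positions came from a RefSeq table (GRCm38.p6), with strand for 29 of the 41 genes. A gene-end peak lay within 1 kb of either gene end, and a near region in the gene body or within 50 kb. Rank percentiles were taken within a list, or among shared regions. Single values were compared over libraries by an exact permutation test, which cannot go below 0.333 here. Lists are described by counts beside the same counts over all genes or regions.

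All 41 genes are named. Values per library are given for genes with group-only regions, for the 8 with the highest mean rank among gene ends open in all 4 libraries, for genes with a gene-end peak in some libraries, and for the 5 largest rank differences of shared regions. The genes and comparison lists were chosen with earlier results of these data known. Alternatives were peaks covering 0.5 of a region, −log10 q of at least 5 or 10, lists shortened to 54045 peaks, other windows (10 and 200 kb for regions, 0 bp and 5 kb for gene ends, the 5′ end of the annotated gene only), the nearest gene only, the sum of peak widths, ranks within whole lists and leaving out each library. The joining code was tested on simulated lists. Python 3.11.15, numpy 2.4.6, pandas 2.3.3 and matplotlib 3.10.9 were used.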

Additional observations from a re-analysis of the deposited data

How the results depend on the processing

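With 2 libraries a group, peak lists without reads and no test able to pass 0.05, these results describe the 4 libraries. The T2-only count of regions near the genes (35, or 11.8%, against 6.88% of all regions) was 13 with lists of equal length (5.78%, against 4.33%), 22 within 10 kb (12.5%) and 69 within 200 kb (8.54%). With 1 library left out it was 39 to 62, highest without T1 replicate 1 (22.0%, against 13.1% of all regions) and lowest without T1 replicate 2 (13.6%, against 9.67%), so the share over all regions moved too. The T1-only count (5) was 1 and 0 at −log10 q of at least 5 and 10, 11 with equal lists (4.89%, against 4.61%), 3 within 10 kb, 17 within 200 kb and 3 where the listed gene was the nearest. It was 7 to 20 with 1 library left out, highest without T1 replicate 2 (6.99%, against 6.14%). The difference of 47.5 regions, T2 minus T1, turned to -16 with equal lists (exact permutation p = 0.333). Pairing the libraries by replicate number gave 37 and 58, a mean of 47.5 (sign-flip permutation p = 0.5), and the labels tie these numbers to no animal or batch.

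Genes with a gene-end peak in all 4 libraries (17, or 41.5%, against 59.7% of all genes) numbered 9 at −log10 q of at least 10 (against 54.5%), 4 with peaks on the end itself (9.76%, against 47.1%) and 8 of 29 at the 5′ end only (27.6%, against 57.0%). Within 5 kb there were 31 (75.6%, against 69.7%), the setting that put the genes above the share of all genes. Genes with a T2-only gene-end peak (8, against 1.17%) numbered 2 and 3 at −log10 q of at least 5 and 10, 2 with equal lists, 2 with peaks on the end itself (against 0.973%) and 2 within 5 kb (against 1.12%). They numbered 8 of 29 at the 5′ end only (27.6%, against 1.05%), and 8 to 13 with 1 library left out (against 1.68% to 2.39%). The median rank difference of shared regions (0.43) was 1.15 with equal lists, 0.047 to 2.23 with 1 library left out, 4.70 with ranks within whole lists (3.15 over all shared regions) and -0.19 where the listed gene was the nearest. The median log2 width ratio (0.05) was 0.030 to 0.15 with 1 library left out.

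Of the 25 genes with group-only regions, 24 had unequal T2-only and T1-only counts. The difference was 0 for 11 genes with equal lists and for 13 at each −log10 q threshold, so that 12, 12 and 11 kept their sign with equal lists and at thresholds of 5 and 10. It turned for Pax6 (-1) and Pax3 (-2) with equal lists, for Gata6 at -1 with peaks covering 0.5 of a region and at -1 within 10 kb, for Sox10 at 1 with −log10 q of at least 10, and for Dlx5 at -1 without T1 replicate 2. The causes were not tested. The lists do not give read depth, on which the number of weak peaks can depend.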
